A study of Mus musculus with 30 samples.

Results

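Among 30 RNA libraries from a mouse B-cell lymphoma line, 17 libraries were taken as lines selected in paclitaxel and were divided into a high cluster of 6 and a low cluster of 11 by their score on the first principal component of expression. The high cluster held the libraries labelled Pac A6, C11, D4, D7, F10 and G9. The low cluster held Pac B2, C1, C3, D10, E1, E2, H1, H3, H4 and H8, together with the library labelled DMSO 12. The starting line was Eµ-Myc; p19ARF−/−, a mouse lymphoma in which an immunoglobulin enhancer drives Myc in B cells and the p19ARF tumour suppressor is deleted, and every library compared here carries both alterations. The lines were grown in plate wells through repeated weekly cycles of paclitaxel, or of the solvent DMSO for the controls, each followed by drug-free recovery. One RNA library was made per line, so a library stands for 1 evolved culture and not for a repeat of a culture. DMSO 1 to DMSO 11 served as the 11 control libraries, and Pac H9 and the untreated starting line labelled Parental were left out of both clusters by choice, not by their scores. The labels from DMSO 12 onwards may be displaced by one place, so that libraries are named by their labels here and DMSO 12 is counted as a paclitaxel line only under that reading. The values that chose the clusters were the expression values themselves, and every difference in expression between the clusters is therefore given as a description without a test.

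Paclitaxel binds and stabilises microtubules, which arrests dividing cells in mitosis. A known route of resistance is export of the drug by P-glycoprotein, which mice encode in the neighbouring genes Abcb1a and Abcb1b. In lymphomas driven by Myc, Myc is known to keep growth, nucleotide synthesis and ribosome production high, which was not tested in these lines. The activity of Myc is opposed by proteins of the MXD family, which compete for the shared partner MAX. Stress on amino acid supply or protein folding is known to act through the kinases that phosphorylate eIF2α and the transcription factor ATF4, which raises amino acid synthesis and tRNA charging genes through a composite C/EBP-ATF element. Sterol shortage acts through SREBP2 on the genes of cholesterol synthesis.

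The identity of the libraries was checked first. Cdkn2a, the gene that encodes p19ARF, had 0 counts in all 30 libraries, where a limit of 3 counts corresponded to 0.445 CPM (the count scaled to the size of the library) in the deepest library and 6.24 CPM in the shallowest. A count of 0 does not tell a deleted gene from one that is not expressed, so the deletion is taken from the name of the line. The summed level of 8 B-lineage genes, on a scale set over all genes with a count, lay between 1689 and 3347 CPM in the high cluster and between 1694 and 4144 CPM in the low cluster, against 2863 to 5004 CPM in DMSO 1 to DMSO 11. One of them, Ms4a1 (CD20), had 1.06, 2.71 and 13.7 CPM as the lowest, median and highest of the high libraries and 0, 69.7 and 293 CPM in the low ones. Of the stromal list, the collagen genes Col1a1, Col1a2 and Col3a1, and Epcam, which marks epithelial cells, had at most 3 counts each over all 17 libraries. Of the T and NK list, Cd3e, Trac and Nkg7 also had at most 3 counts each. Others were detected, with Cd3g at up to 12.6 CPM in the high cluster. In the low cluster Cd3d reached 8.92 CPM and Lck 14.8 CPM. The summed T and NK list reached at most 23.6 CPM in either cluster. The fifth gene of the stromal list, Pecam1, which B cells can also express, had 10.7, 27.7 and 52.9 CPM as the lowest, median and highest of the high libraries and 8.95, 49.6 and 72.0 CPM in the low ones. The myeloid list summed to between 45.7 and 288 CPM in the high cluster and between 52.5 and 208 CPM in the low cluster, most of it from Tyrobp. The early B list summed to between 33.6 and 197 CPM in the high cluster and between 22.9 and 139 CPM in the low cluster, and the plasma cell list to at most 40 CPM in either. The part of these marker levels in the results was not tested. In bulk RNA, fewer cells of a type and less RNA per cell cannot be told apart.

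The first component held 22.4% of the variance over the 30 libraries and the second held 11.3%. On the first component the high cluster ran from 50.4 in Pac D7 to 95.3 in Pac F10, with a median of 66.5. The low cluster ran from -68.1 in Pac C1 to -4.47 in Pac H1, with a median of -14.2. The empty interval between the clusters was 54.9 units, or 33.6% of the range of the 17 libraries. Both clusters overlapped on the second component, where the high cluster lay between -1.31 and 18.1 and the low cluster between 11.8 and 71.4. DMSO 1 to DMSO 11 all lay lower on the second component, between -36.9 and -10.0, whereas DMSO 12 was at 25.2, inside the low cluster. Pac H9 was at 3.93 and Parental at -33.8 on the second component. On the first, Pac H9 was at -40.4, Parental at -12.7 and DMSO 1 to DMSO 10 between -32.7 and 1.25, so that Pac H9, Parental and most of these controls lay within the range of the low cluster. The gap on the first component was present with 17 libraries alone, at 29.9% of their range, but with only the 500 most variable genes the clusters overlapped on that component.

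**Figure D1:**
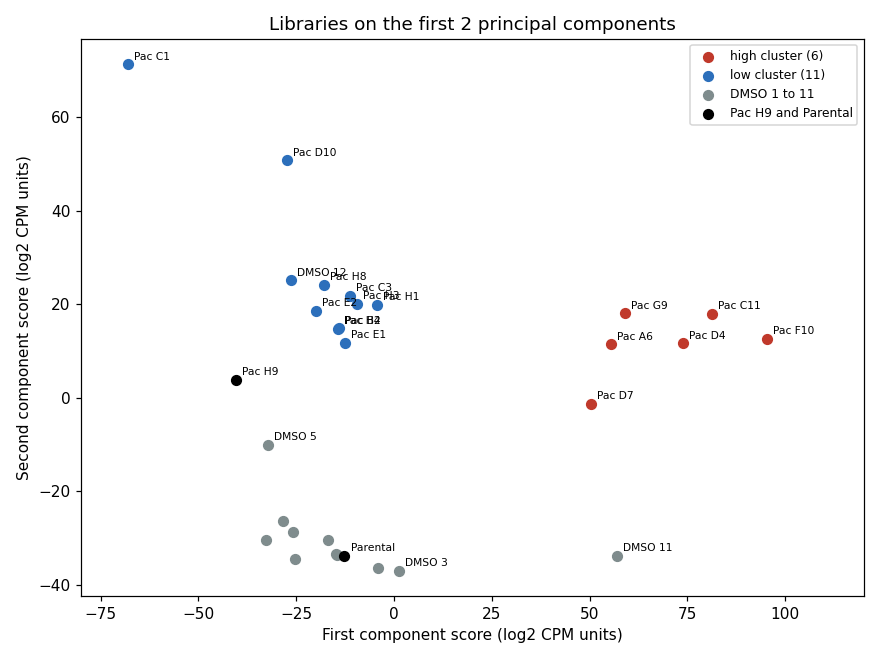
Scores of the 30 libraries on the first (x axis) and second (y axis) principal component of log2 CPM, coloured by cluster; each point is 1 library. The 6 high libraries start at 50.4 on the x axis, the 11 low libraries end at -4.47, and DMSO 11 is the only control among the high scores, at 57.0.

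The clusters differed in how many genes were seen. Total counts were between 2640319 and 5315840 in the high cluster, and between 480919 and 6682169 in the low cluster, where the median was 2077965. The totals overlapped, and a two-sided exact permutation test of their ranks over all 12376 splits gave p = 0.149 (n = 6 and 11; p = 0.22 without DMSO 12). The same kind of permutation test on the difference of mean log10 totals gave p = 0.096. Neither test shows the depths to be equal. When every library was thinned to the smallest total, 480919 counts, between 8419 and 8932 genes kept at least 3 counts in the high cluster and between 7420 and 7866 in the low cluster, so that the groups did not overlap. The 10 controls DMSO 1 to DMSO 10 kept between 7364 and 8018 genes, and DMSO 11 kept 8289. The TMM factor, which rescales each library for its composition, was between 1.10 and 1.27 in the high cluster and between 0.923 and 1.02 in the low cluster. Long noncoding RNA genes held between 1.43% and 2.76% of the counts in the high cluster and between 1.22% and 1.94% in the low cluster. Mitochondrial genes held 11.9% of the counts in Pac D4 and 10.1% in Pac C11, between 2.29% and 3.84% in the other 4 high libraries, and between 1.34% and 4.35% in the low cluster. The part of these library properties in the gene differences that follow was not tested.

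**Figure D2:**
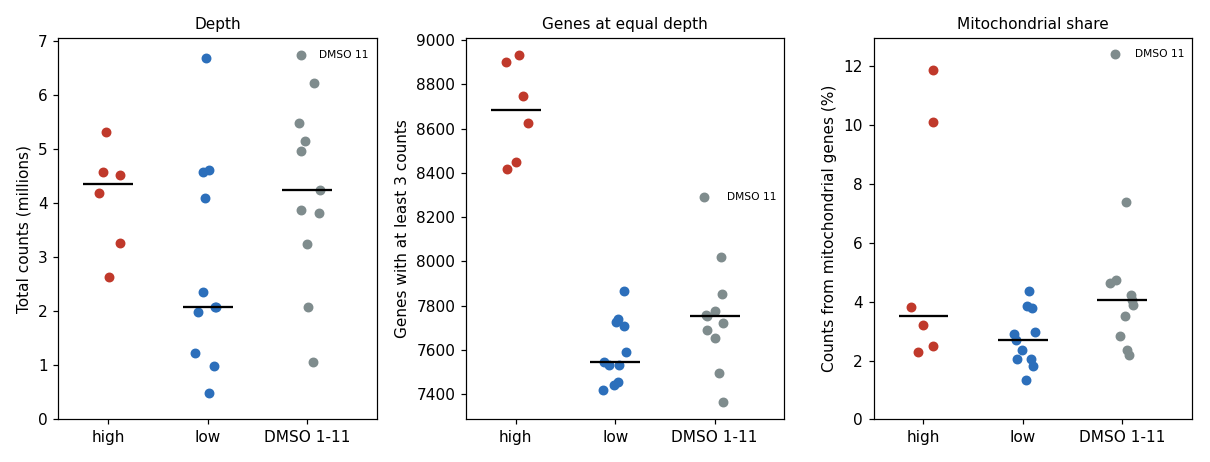
Total counts, genes with at least 3 counts after thinning to 480919 counts (y axis not starting at 0), and the share of counts from mitochondrial genes, for the high cluster, the low cluster and DMSO 1 to DMSO 11; points are libraries and lines are medians. Depth overlapped, whereas the lowest high library kept 8419 genes and the highest low library 7866.

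Of 10418 genes that passed the filter on low counts, 522 were higher in all 6 high libraries than in any of the 11 low ones by a mean of at least 2-fold, and 156 were lower by the same rule. These were 5.01% and 1.5% of the genes, or 6.51% together, and since the clusters were chosen from the same values nothing is read from the shares. Without Pac D7 the rule gave 837 genes higher and 230 lower, and with every library thinned to the smallest total it gave 290 and 54 of 6218 genes tested. The split depended on the scaling, because the median difference over all genes was 0.18 on the log2 scale with TMM factors and 0.42 without factors, where the rule gave 861 genes higher and 24 lower. With genes averaging at least 20 CPM and factors recomputed on them, it gave 364 higher and 35 lower. The difference also followed expression level. In the third of 10 equal level classes, at 5.16 to 8.42 CPM, the median difference between clusters was 0.65, and in the highest class, from 168 CPM upwards, it was -0.62. That highest class held 94 of the 156 genes called lower and 6 of the 522 called higher. When each library's trend with level was removed, 264 genes were higher and 112 lower, and 218 of the 522 and 26 of the 156 were among them. Directions below are relative to the TMM scale, and each list median is followed by its value after removal of this trend.

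Among called genes averaging at least 20 CPM in the higher cluster, the largest positive difference was that of Mxd4, an MXD family antagonist of Myc. It had 26.6, 35.4 and 115 CPM as the lowest, median and highest of the high libraries, against 0, 4.97 and 13.6 CPM in the low ones, a mean difference of 3.11 on the log2 scale. Foxo1, a transcription factor that AKT keeps out of the nucleus and that is needed for B-cell development, had 22.7, 50.2 and 96.9 CPM in the high cluster and 0.461, 9.02 and 18.6 CPM in the low one. The control libraries DMSO 1 to DMSO 10 had between 4.00 and 17.5 CPM of Foxo1, inside the range of the low cluster. Cited2, a transcriptional co-regulator that binds CBP and p300, had between 23.4 and 53.2 CPM in the high cluster and at most 11.7 CPM in the low one. Jund, an AP-1 subunit, had 12.5, 20.5 and 36.4 CPM against 0, 2.62 and 5.14 CPM. For each of these 4 genes the lowest high library also stood above all of DMSO 1 to DMSO 10, which reached 21.5 CPM for Mxd4.

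The other genes of the 15 with the largest positive differences by this rule were of mixed function. Ddit3 (CHOP, a transcription factor of the stress response; ENSMUSG00000025408.15) had 24.1, 55.5 and 113 CPM in the high cluster and 0, 10.6 and 22 CPM in the low one, while DMSO 1 to DMSO 10 ranged from 2.27 to 55.6 CPM and so overlapped the high cluster. Rb1cc1, which is part of the complex that starts autophagy, had between 12.2 and 35.9 CPM against at most 7.85 CPM. Zfand5, which activates the proteasome, had between 26.3 and 44.6 CPM against at most 13.6 CPM. Frat2, an inhibitor of GSK3, had between 28.1 and 130 CPM against at most 16.9 CPM. Setd7, a lysine methyltransferase, had between 13.4 and 41.4 CPM against at most 12.2 CPM. Tbcel, a tubulin-binding cofactor-like protein, had between 11.8 and 38.7 CPM against at most 7.81 CPM. Pithd1, Gtpbp2, D930016D06Rik, an identifier without a symbol (ENSMUSG00000118642.1) and Mir6236, annotated as a microRNA gene, completed the 15, with mean log2 differences between 2.5 for Gtpbp2 and 3.01 for Mir6236. None of the 15 passed the test of paclitaxel against DMSO, which set the 16 member libraries labelled Pac, without Pac H9 and DMSO 12, against DMSO 1 to DMSO 11 (edgeR quasi-likelihood test, adjusted p between 0.0737 for Jund and 0.714 for ENSMUSG00000118642.1). Of all tested genes, 3.62% passed. Genes chosen because they split the paclitaxel libraries have a wide spread in that arm, so nothing is read from this.

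By the same rule, the largest negative difference was that of Fabp5, which binds and carries fatty acids in the cytosol. It had 64.8, 109 and 142 CPM as the lowest, median and highest of the high libraries and 222, 512 and 1085 CPM in the low ones, a mean log2 difference of -2.22. Nsdhl, an enzyme of cholesterol synthesis, had 16.3, 29.5 and 40.7 CPM against 61.3, 85.1 and 137 CPM. Acat2, which makes acetoacetyl-CoA for sterol synthesis, had 47.7, 79.9 and 164 CPM against 168, 261 and 399 CPM, and its 2 closest libraries were thus 164 CPM in the high and 168 CPM in the low cluster. Dbi, the acyl-CoA binding protein, had 329, 553 and 892 CPM against 896, 1451 and 2488 CPM, again with almost touching ranges.

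The others of the 15 were of mixed function. Fbxo5 (EMI1, the inhibitor of the anaphase-promoting complex) had between 22.7 and 106 CPM in the high cluster and between 127 and 211 CPM in the low one. Hat1, which acetylates new histone H4, had between 71.5 and 174 CPM against 219 to 361 CPM. Asf1b, a histone chaperone, had between 105 and 428 CPM against 463 to 622 CPM. Fignl1, which acts in recombination, had between 40.9 and 117 CPM against 185 to 274 CPM. Hprt, the purine salvage enzyme of the X chromosome, had between 247 and 732 CPM against 940 to 1375 CPM. Idh3a, Srsf7, Prdx4, Mrpl20, Ppp5c and Abracl completed the 15, with mean log2 differences between -1.51 for Ppp5c and -1.40 for Mrpl20. None of these 15 passed the test of paclitaxel against DMSO at an adjusted p of 0.01 (edgeR quasi-likelihood test), where the lowest value was 0.0268 for Abracl. The same limit holds, because these genes were also chosen for splitting the paclitaxel libraries, and nothing is read from it.

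The 39 gene lists used to group the results had been compiled with earlier results of these data known. Against the all-gene median difference of 0.18, 19 lists had a higher median. The immediate early list had a median difference of 1.26 over 28 tested genes, with 5 called higher and 0 lower, beside 5.01% and 1.5% of all tested genes. Its libraries lay between 0.56 and 1.72 above the DMSO mean in the high cluster and between -0.36 and 0.22 in the low one, and did not overlap. Besides Jund, Jun, the partner of FOS in AP-1, had between 8.37 and 47.6 CPM in the high cluster and between 0.874 and 8.20 CPM in the low one. Zfp36l1, which destabilises AU-rich mRNAs, had between 17.3 and 63.7 CPM against at most 14.2 CPM, and Ier5 had between 32.6 and 78.2 CPM against at most 18.1 CPM. After the trend with level the list's median was 0.59. The p53 target list had a median of 1.12 over 30 genes, or 0.56 after the trend. Only Trp53inp1, a p53-induced stress protein, was called, at 99.5 to 407 CPM against 27.7 to 85.6 CPM. The controls DMSO 1 to DMSO 10 had between 53.9 and 141 CPM of Trp53inp1 and overlapped both clusters. Without Pac G9 the p53 median was 0.65.

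Genes of amino acid stress and tRNA charging were the list with the largest median after the trend with level was removed, at 0.98, against 0.52 before. Of 41 tested genes, 4 were called higher and 0 lower, beside 5.01% and 1.5% of all tested genes. Trib3, a pseudokinase induced by ATF4 and CHOP, had 5.04, 10.6 and 27.5 CPM in the high cluster and 0, 1.75 and 4.18 CPM in the low one. Cebpg, a C/EBP family partner of ATF4, had 27.7, 55.3 and 97.3 CPM against 7.63, 12.2 and 17.0 CPM. Mars, the methionyl-tRNA synthetase, had between 50.7 and 93.7 CPM against 24.2 to 42.1 CPM. In DMSO 1 to DMSO 10, Mars lay between 33.5 and 74.1 CPM and Trib3 reached 7.05 CPM, so both overlapped the high cluster. Cebpg reached 20.9 CPM in these controls, under the lowest high library. Libraries of the high cluster lay between -0.38 and 0.70 from the DMSO mean and the low ones between -0.22 and 0.10. The list's medians thus overlapped between the clusters while the 4 called genes did not. The list's median lay between -0.35 and 0.58 in DMSO 1 to DMSO 10. In DMSO 11 it was 0.82, above every high library.

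The promoter sequences of the list were searched for the C/EBP-ATF element as TGATGNAA on either strand, in the window from 250 bases before to 50 bases after the RefSeq start (GRCm38.p6). A promoter was held for 31 of the 41 genes, and 9 of them had a match, 29%, against 2.56% of 7742 tested genes with a promoter and 4.51% of all 27025 genes with one. Of the genes called higher between the clusters, 7 of 413 with a promoter had a match, 1.69%, and of those called lower 1 of 119, 0.84%. The 9 genes with a match had a median difference of 1.45 between clusters and the 22 without had 0.47. These genes were picked out after their values were seen. Matches upstream of the start and outside annotated transcripts are shown for 4 genes, with the element in capitals, to set the sequence beside each gene's response.
Pycr1 (chr11:120643818-120643877, minus strand): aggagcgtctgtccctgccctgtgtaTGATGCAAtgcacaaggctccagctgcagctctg
Gars (chr6:55037945-55038000, plus strand): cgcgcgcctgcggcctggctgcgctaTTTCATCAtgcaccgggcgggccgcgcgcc
Asns (chr6:7693210-7693258, minus strand): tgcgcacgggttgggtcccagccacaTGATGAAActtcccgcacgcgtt
Tars (chr15:11399659-11399699, minus strand): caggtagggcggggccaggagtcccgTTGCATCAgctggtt

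A match did not go with a uniform difference. Pycr1, which makes proline, had 13.7, 19.1 and 46.5 CPM in the high cluster and 0, 2.13 and 14.4 CPM in the low one, a log2 difference of 3.26, although the highest low library passed the lowest high one. Gars, the glycyl-tRNA synthetase, had 117, 357 and 432 CPM against 56.5, 85.6 and 142 CPM, with the ranges overlapping. Asns, which makes asparagine, had 172, 503 and 901 CPM against 230, 387 and 759 CPM, a log2 difference of 0.24, and Tars, the threonyl-tRNA synthetase, had 51.8, 92.9 and 124 CPM against 56.5, 81.6 and 141 CPM, a difference of 0.02. For Asns and Tars the clusters overlapped throughout. A match is a string of letters and was not shown to be bound.

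Single members of the BCL2, Myc-network, NF-kB and heat shock lists were also called, and these small counts stand beside 5.01% of all genes called higher. In the BCL2 family, 2 of 14 tested genes were called higher: Mcl1, which protects cells from apoptosis, at 101, 166 and 377 CPM against 32.8, 53.2 and 77.1 CPM, and Bak1, which permeabilises mitochondria, at 8.4 to 22.9 CPM against at most 7.84 CPM. The family's median was 0.92, and 0.46 after the trend with level, but it was -0.27 with thinned libraries and -0.17 among genes of at least 20 CPM. In the Myc network, Mxd4 and Mlxip, a glucose-sensing partner of MLX, were called higher among 10 tested genes, with Mlxip at 25.7 to 61.6 CPM against at most 21.8 CPM. Myc itself had 912, 1071 and 1447 CPM in the high cluster and 771, 971 and 2995 CPM in the low one, a difference of 0.02, where Pac C3 was the library at the top. The NF-kB and TNF list had Sqstm1, an autophagy receptor, at 64.5 to 152 CPM against at most 28.9 CPM, and Tnip1 at 7.05 to 14.1 CPM against at most 6.56 CPM. In the heat shock list, 2 of 25 genes were called higher, the chaperone Hspa4 at 167 to 323 CPM against 49.2 to 123 CPM and the co-chaperone Ptges3 at 34.2 to 166 CPM against 16.2 to 29.4 CPM. The heat shock median was -0.41, however, and 0.29 after the trend with level.

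Other lists had 1 to 4 called members each, beside 5.01% of all tested genes called higher and 1.5% called lower. Pax5, the master regulator of B-cell identity, had 50.4, 76.6 and 109 CPM in the high cluster and 17.5, 29.8 and 44.2 CPM in the low one, and DMSO 1 to DMSO 10 lay between 25.4 and 52.3 CPM. Of 39 mature B-cell genes 1 was called, a share below that of all genes, and the list's median was -0.31, or 0.03 after the trend with level, so that its sign turned. Tgfbr2, a receptor of TGF-β, had 24.1 to 48.9 CPM against 2.05 to 21.4 CPM. Itga6, an integrin, had 26 to 71 CPM against at most 23.9 CPM, Dnmt3a, a DNA methyltransferase, 28.5 to 52.7 CPM against at most 17.1 CPM, and E2f1, which drives entry into S phase, 21.2 to 70.2 CPM against at most 20.5 CPM. Cecr2, 1 of 18 early B genes and so near the share of all genes, had 38.8 to 142 CPM against 8.80 to 29.8 CPM. Scarb2, Atp6v0d1 and Lamp1, membrane proteins of lysosomes, were called higher among 39 lysosome genes and the protease Ctsc was called lower, at 60.9 to 172 CPM against 185 to 389 CPM. Among 23 antioxidant genes, Sod1 was higher, at 128 to 318 CPM against 52.8 to 71.7 CPM, and Prdx1 lower, at 781 to 1736 CPM against 1839 to 4247 CPM.

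Cholesterol synthesis genes had a negative difference in 22 of 33 tested genes, against 43.0% of all tested genes, with 4 called lower, beside 1.5% of all tested genes, and 0 higher. Sc5d, which acts late in the pathway, had 40.8, 65.2 and 80.1 CPM in the high cluster and 111, 155 and 188 CPM in the low one, and Nsdhl and Acat2 were given above. The list's median was -0.64, and -0.46 after the trend with level. In DMSO 11 it was -0.96 from the DMSO mean, below all of the other controls. The CCAAT box was present in 82.6% of the 23 promoters held for the list, against 43.8% of tested genes with a promoter, and the sterol element searched as TCACNCCAC was in 1 of the 23, 4.35%, against 1.37% of tested genes with a promoter.

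Respiratory chain and growth genes had lower medians in the high cluster, and these moved with expression level. Of 91 respiratory chain subunits, 85 had a negative difference, against 43.0% of all tested genes, 8 were called lower, beside 1.5% of all tested genes, and 0 higher. Uqcrb, of complex III, had 47.0, 122 and 202 CPM against 228, 263 and 321 CPM, and Cox7b, of complex IV, had 301, 462 and 643 CPM against 943, 1024 and 1243 CPM. The list's median per library lay between -0.83 and -0.42 in the high cluster and between -0.12 and 0.27 in the low one, yet after the trend with level the difference between clusters went from -0.73 to -0.13. Ribosomal proteins went from -0.41 to 0.14 and ribosome biogenesis genes from -0.34 to 0.13. S-phase genes went from -0.68 to -0.28, with Rrm1, the large subunit of ribonucleotide reductase, at 165 to 464 CPM against 502 to 803 CPM, Mcm4, of the replicative helicase, at 114 to 278 CPM against 360 to 606 CPM, and Rpa1, which binds single-stranded DNA, at 131 to 311 CPM against 312 to 581 CPM. In mitosis, 1 of 59 genes was called, the checkpoint kinase Bub1b, at 110 to 250 CPM against 283 to 587 CPM. Tubulins had 11 of 13 genes below 0, against the same 43.0% of all genes, and a median of -0.43, or -0.48 after the trend, and none was called. Tuba1a had 17.6, 29.9 and 176 CPM against 68.1, 125 and 222 CPM and Tubb4b had 67.4, 121 and 254 CPM against 227, 304 and 407 CPM. In both, at least 1 high library reached into the low range.

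**Figure D3:**
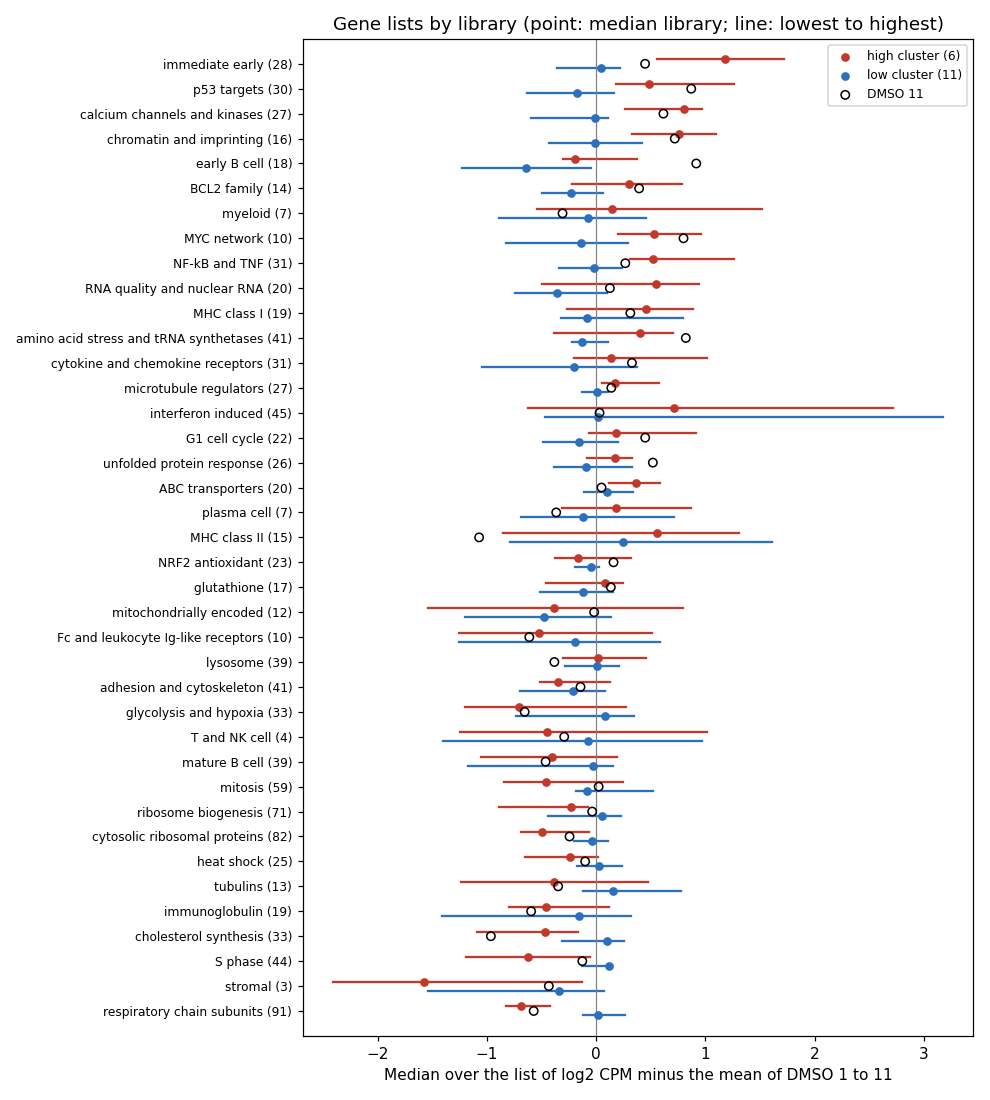
For each of the 39 gene lists (number of tested genes in brackets), the median over its genes of log2 CPM minus the mean of DMSO 1 to DMSO 11; points are the median library of a cluster, lines run from its lowest to its highest library, and the open circle is DMSO 11. Immediate early genes in the high cluster start at 0.56 and respiratory chain subunits end at -0.42, and neither overlaps the low cluster.

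Some lists differed widely inside the clusters. Interferon-induced genes lay between -0.62 and 2.71 over the high libraries and between -0.47 and 3.18 over the low ones, and 0 of 45 genes were called, beside 6.51% of all tested genes. Rsad2, an antiviral protein, had 196 CPM in Pac G9 and 2.36 CPM in Pac D4 within the high cluster, and 101 CPM in Pac H1 within the low one. H2-K1, an MHC class I chain, had 19.5, 122 and 432 CPM in the high cluster against 0.504, 15.4 and 69.5 CPM in the low one. Ankrd37 and Bnip3, which hypoxia induces, had the largest differences of the glycolysis and hypoxia list, at -2.97 and -2.78. Ankrd37 was between 6.01 and 12.6 CPM in 5 high libraries but at 163 CPM in Pac A6, against 28.8 to 271 CPM in the low cluster. Rn7sk was the called member of the RNA quality and nuclear RNA list, and mt-Rnr1 that of the mitochondrially encoded list. The RNA quality and nuclear RNA list had a median of 0.62 over 20 tested genes, or 0.82 after the trend with level. Its libraries overlapped, at -0.50 to 0.94 in the high cluster and -0.74 to 0.10 in the low one. Rn7sk, a small nuclear RNA, had 17.3, 30.9 and 85.4 CPM against 3.14, 5.14 and 15.3 CPM, and mt-Rnr1, a mitochondrial ribosomal RNA, had 4381, 6646 and 30521 CPM against 1023, 2080 and 4028 CPM. DMSO 11 had the highest mt-Rnr1 of all libraries, 48938 CPM. The median of the 12 tested mitochondrially encoded genes was -0.03, and 0.64 after the trend with level, with 6 above 0 and 6 below.

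Single libraries carried genes of their own. The largest gap to the next of the 17 libraries was for Ak9, an adenylate kinase, in Pac D7, with 132 CPM against at most 9.32 CPM elsewhere among the 17 and 15.4 CPM in a control, and 12 genes of Pac D7 had a gap of at least 2 on the log2 scale. Slc6a13, a GABA transporter, had 112 CPM in Pac H8 against 8.52 CPM in the next of the 17, although a control reached 34.6 CPM. Ephx1, an epoxide hydrolase, had 127 CPM in Pac G9 against 16.4 CPM in the next. Ifi47, an interferon-induced GTPase, had 360 CPM in Pac H1 against 58.8 CPM in Pac G9, although a control reached 90.8 CPM. Iglc1, a light chain constant gene, had 8338 CPM in Pac H3 against 1879 CPM in Pac D7 and 919 CPM in a control. Pac A6, C11, F10, B2, E1, E2, H4 and DMSO 12 had no gene with a gap of 2.

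The comparison of paclitaxel with DMSO asked which genes differed between paclitaxel and control lines whatever the cluster. Of 10418 genes, 182 rose and 195 fell in 16 paclitaxel libraries against DMSO 1 to DMSO 11 (edgeR quasi-likelihood test, adjusted p under 0.01; 240 genes in all with Pac H9 and DMSO 12 kept under their labels), 1.75% and 1.87% of the genes, or 3.62% together. Abcb1b rose by 1.64 ± 0.22 (SE) on the log2 scale (adjusted p = 1.3e-05). It had 42.0, 91.4 and 256 CPM in the high cluster and 49.2, 81.3 and 119 CPM in the low one, against 16.1, 32.4 and 45.9 CPM in DMSO 1 to DMSO 10. The clusters overlapped, with a mean difference of 0.15, and of the 17 libraries only Pac A6 at 42.0 CPM lay inside the control range. DMSO 12 had 70.1 CPM and Pac H9 had 26.1 CPM. Abcb1a had 3 counts over all 30 libraries. Abcb4, the phospholipid transporter next to Abcb1b on chromosome 5, also rose, by 6.25 ± 0.86 (edgeR quasi-likelihood, adjusted p = 1.8e-05), from at most 0.377 CPM in any of DMSO 1 to DMSO 11. Within the paclitaxel libraries it had 7.05 to 58.8 CPM in the high cluster and 0 to 9.25 CPM in the low one, and only Pac A6 lay under the highest low library, Pac D10.

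Some genes that separated the clusters also passed that test. A gene that splits the paclitaxel libraries, and on which DMSO 11 stands apart from the other controls, has a wide spread in both arms, so nothing is read from how many passed. Of the 522 higher genes, 5 rose and 1 fell, and of the 156 lower genes, 1 rose and 1 fell. Those that rose among the higher genes included Fam168b, Nck2, an SH2-SH3 adaptor, Trpc4ap and Dtnb, and the one that fell was Aplp2, an amyloid precursor-like protein. Cox5a, a complex IV subunit on chromosome 9, fell by 1.03 ± 0.18 (SE; adjusted p = 0.0004, edgeR quasi-likelihood), with 42.4 to 77.0 CPM in the high cluster, 86.4 to 170 CPM in the low one and 125 to 266 CPM in DMSO 1 to DMSO 11. Zfp239 was the lower gene that rose, by 0.88 ± 0.21 (adjusted p = 0.007, edgeR quasi-likelihood), with 49.9 to 107 CPM in the low cluster against 26.6 to 46.1 CPM in the high one and 24.2 to 46.8 CPM in the controls. Over the lists, calls in this comparison were few, beside 1.75% of all tested genes that rose and 1.87% that fell. Of 91 respiratory chain subunits, 0 rose and 6 fell, and of 82 cytosolic ribosomal proteins, 1 rose and 3 fell. Of 39 mature B-cell genes, Bank1, Cd79b and Tnfrsf13c fell and Bcl11a rose, by 3.04 on the log2 scale (edgeR quasi-likelihood, adjusted p = 0.0049). Of 45 interferon-induced genes, Oasl1, Slfn8, Ifit2 and Ifit3 rose, of 41 adhesion and cytoskeleton genes 4 fell, and of 13 tubulin genes Tuba1c fell. Of 28 immediate early genes, Cd69 and Fosb rose and Klf2 fell. The remaining lists had at most 3 calls each.

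The DMSO 11 library, a control outside both clusters, stood apart from the other controls for most of these genes. It was above each of DMSO 1 to DMSO 10 in 462 of the 522 higher genes, 88.5%, against 27.8% of all 10418 genes. It was below each of them in 141 of the 156 lower genes, 90.4%, against 21.1% of all genes. None of the other 10 controls was the highest of the 11 in more than 20 of the 522 genes or the lowest in more than 7 of the 156. Its median difference from DMSO 1 to DMSO 10 was 1.38 over the higher genes and -0.82 over the lower genes, beside 0.08 over all genes. The mean log2 level of the 522 higher minus that of the 156 lower genes was -1.93 in DMSO 11, between -1.98 and -0.81 in the high cluster, between -5.31 and -4.18 in the low one and between -4.73 and -3.63 in DMSO 1 to DMSO 10. Pac H9 was at -4.61 and Parental at -4.07. The low cluster therefore overlapped with the other controls on this score.

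DMSO 11 did not match the high cluster for every gene. For Foxo1 it had 58.0 CPM, for Cited2 39.7 CPM and for Sc5d 48.2 CPM, each within the high range. For Jun it had 3.07 CPM, under the lowest high library, and for Mxd4 19.9 CPM, inside the range of the other controls. Its Abcb1b level, 25.3 CPM, and its score on the second component, -33.7, were those of a control. DMSO 11 was also the deepest library, with 6739131 counts, and had the largest mitochondrial share, 12.4%, and the part of these in its values was not tested.

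Chromosome medians divided the libraries along other lines. Each library's median difference from the DMSO mean was taken per chromosome, and the trend with level was removed. Chromosome X was the only one of 20 on which the clusters did not overlap, at -0.78 to -0.18 in the high cluster and -0.16 to 0.12 in the low one, with DMSO 11 at -0.19 and Pac D4 lowest. Without removal of the trend, 5 chromosomes (8, 9, 10, 11 and 15) did not overlap and X was not among them. Chromosome 19 was at or below -0.25 in 5 of 6 high and 9 of 11 low libraries and in none of DMSO 1 to DMSO 11. Chromosome 3 was at or above 0.25 in 3 high and 3 low libraries, chromosome 5 in 3 and 3, and chromosome 6 in 2 and 3, with no control that high on any of the 3. Chromosome 6 lay between 0.445 and 0.544 in Pac A6, G9, C1, H3 and H8. DMSO 12 had the lowest value of all, -0.81 on chromosome 14. These shifts are levels of RNA, and DNA was not measured.

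**Figure D4:**
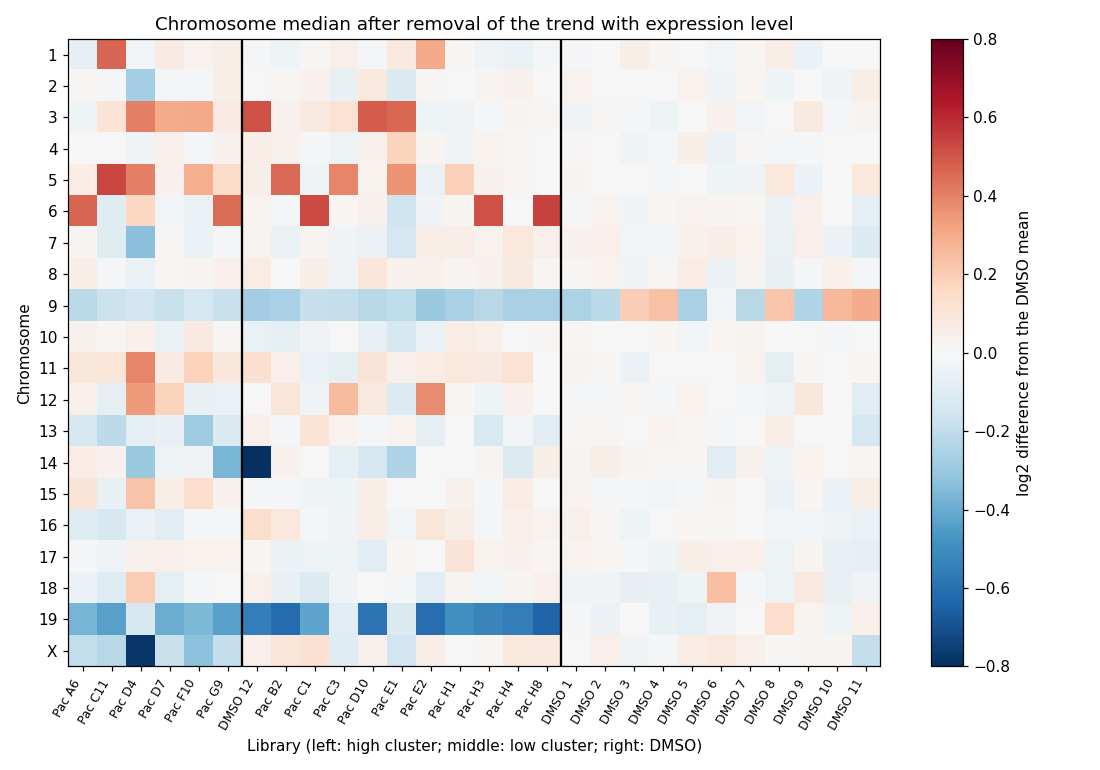
Median log2 difference from the mean of DMSO 1 to DMSO 11 per chromosome (rows) and library (columns), after removal of each library's trend with expression level; red is higher and blue lower, and vertical lines part the high cluster, the low cluster and the controls. Chromosome X is between -0.78 and -0.18 in the 6 high libraries, while the shifts of chromosomes 3, 5, 6 and 19 occur in both clusters.

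Chromosome 9 was lower than the DMSO mean in all 17 libraries, at -0.30 to -0.14. The controls themselves lay between -0.26 and 0.29, with 5 of them between -0.26 and -0.22 and 5 between 0.20 and 0.29, so that the DMSO mean averaged unlike controls there. In 198 windows of 50 neighbouring tested genes, 8 did not overlap between the clusters. Of these, 2 lay on chromosome X and 2 on chromosome 13, and a window on chromosome 11 (chr11:49076587-55423183) was the one that was higher in the high cluster, at 0.21 to 0.62 against -0.14 to 0.20.

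The genes called in the 2 directions also differed in the length of their transcripts. The longest coding transcript had a median of 4561 bases for 510 of the 522 higher genes, 1847 bases for 148 of the 156 lower genes and 3091.5 bases for 9232 of all tested genes. Among genes of 20 to 100 CPM the medians were 4906, 2147 and 3152 bases, although levels within that band still differed, with median CPM of 33.0, 63.0 and 39.9. The pentamer ATTTA, searched on the sense strand in the last 1000 bases, occurred at least 3 times in 33.8% of the higher genes of that level with a tail of that length, 27.6% of the lower and 24.6% of all. The call rule used only levels, and these features were not part of it.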

How the data were processed

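The 30 libraries were sequenced from the 3′ end with barcoded primers that also carry molecular identifiers, in 2 subpools of 15; which lines shared a subpool, and whether identifiers were collapsed, are not given in the sources used here. Per the labels and the methods, the authors aligned reads with STAR 2.5.1b to GRCm38 (mm10) with gencode M25 and deposited counts per gene that were not normalized. The unit of the deposited table is counts, in 55401 identifiers, of which 55141 took a symbol and position from gencode M21 (a different release). Reads of overlapping genes and near-identical copies were not told apart here.

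From the counts, TMM factors and log2 CPM with a prior count of 2 were computed (edgeR 4.0.16, R 4.3.3) for 10418 genes kept by filterByExpr with high, low and DMSO 1 to DMSO 11 as groups. CPM values are TMM-scaled and given without the prior count. A gene was called between the clusters when no library of one cluster overlapped the other and the mean log2 difference was at least 1. The 16 member libraries labelled Pac, without Pac H9 and DMSO 12, were tested against DMSO 1 to DMSO 11 with edgeR's quasi-likelihood test and Benjamini-Hochberg adjustment at 0.01. The labels name separate lines, so p-values measure spread between lines. The genes named were the 15 with the largest difference in each direction among called genes of at least 20 CPM where higher, up to 4 called members of each list, or the 2 largest where none was called, the gene with the largest gap in each library, and Abcb1b, Abcb1a, Myc and Cdkn2a. The trend with level was a running median over 501 genes ordered by their DMSO mean. Totals ranged from 480919 to 6739131 counts, and limits given for 0 counts cover counting error only. The count test and the call rule were tested on simulated data. Of all member pairs, Pac C1 and Pac H3 had the most similar counts, with a mean chi-square of 9.17 for each gene, so none was taken as a copy. The members of the clusters and the gene lists were chosen with earlier results of these data known. Some called genes are not reported here by name.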

Additional observations from a re-analysis of the deposited data

Results flagged for a closer look

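In the high cluster of 6 libraries, 56 measures (6 library properties, 30 genes and 20 chromosome medians) were searched for a library whose gap to its nearest neighbour took more of the range than the 95% critical value of Dixon's test allows. Chance gives such a gap in about 1 in 20 groups, and 3 were found, all on chromosome medians before removal of the trend with level. Pac C11 had a median of 0.60 on chromosome 1, against 0.0070 to 0.23 in the other 5. Pac D4 had -0.22 on chromosome 2, against 0.045 to 0.16, and -0.19 on chromosome 7, against 0.098 to 0.15.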

How the results depend on the processing

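The number of genes called between the clusters was 678. It was 344 with thinned libraries, where 6218 genes were tested, 399 among genes of at least 20 CPM, 885 with no scaling factors (861 higher and 24 lower) and 376 after removal of the trend with level, an alternative chosen after seeing the data. Leaving out 1 library at a time gave 634 to 1067, the highest without Pac D7, and without DMSO 12 it was 698. The gap on the first component, 33.6% of the range, was 32.6% to 45.6% with 1 library left out, the highest without Pac C1, and -43.3% with the 500 most variable genes, a negative value meaning overlap. Lists above the all-gene median numbered 19, and 17 to 21 with 1 library left out. Chromosomes without overlap were 5, 3 with the low libraries as the reference, and 1 after removal of the trend. Genes called for paclitaxel against DMSO were 377, with 2688 at an unadjusted p under 0.05, and 654 with the likelihood ratio test, 707 with DESeq2 1.42.0, 240 with all 17 libraries labelled Pac against 12 labelled DMSO, 187 with thinned libraries and 479 without DMSO 11. The median difference in genes with at least 3 counts between the clusters was 2613.5, and 1140 after thinning, and with at least 1 count 3304.5 and 1333.5. Causes were not tested beyond the fewer genes or libraries some settings hold. No paired analysis was possible because the replicate numbers of the paclitaxel and DMSO libraries name separate lines and pair none. Depth limits genes of a few CPM in the shallowest library, Pac C1.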
